A study of Mus musculus with 6 samples.

Results

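P2ry1 and 9 other genes of extracellular nucleotide and adenosine signalling were examined in mouse kidney tubular cells with and without a knockdown of Glis2. The 10 genes were the nucleotide receptors P2ry1, P2ry2, P2ry6, P2ry14, P2rx4 and P2rx7, the ectonucleotidases Entpd1, Entpd2 and Nt5e, and the adenosine receptor Adora2b. Every probe annotated with 1 of these symbols was taken, which gave 19 of the 45281 probes on the array and 9 of the 10 genes; Adora2b was not analysed here. The genes were chosen by a rule that already had the intensity difference between Glis2KD and Control in view, so the values of their probes are given as a description and carry no test.

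The cells were immortalized proximal tubular cells of a mouse strain labelled C56BL/6, the epithelium that reabsorbs most of the filtered salt and solutes in the kidney. The Glis2KD group, 3 arrays, carried an anti-Glis2 shRNA, a short hairpin that lowers the transcript of the zinc finger factor Glis2. The Control group, 3 arrays, carried a hairpin against GFP, which these cells are not labelled as expressing. Both groups were infected with lentivirus, kept as stable populations and harvested at day 7. The labels give neither the number of hairpin sequences per target nor whether the arrays of a group stand for separate infections or cultures, so a p-value here covers the spread among arrays, possibly a technical one. The deposited values are linear probe intensities that still contain background.

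Cells release ATP, UTP and UDP-sugars, which act on receptors at the cell surface before enzymes on the same surface break them down. P2Y receptors couple to G proteins, and P2X receptors are cation channels opened by ATP. Entpd enzymes remove phosphates from nucleoside tri- and diphosphates, and Nt5e, known as CD73, turns AMP into adenosine, which acts on its own receptors. In the kidney tubule this signalling is known to adjust salt and water transport locally.

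A probe was taken as above background where its intensity exceeded 138, the most frequent intensity of the array (113.5) plus 3 SD, the SD being taken from the intensities under that value. About 40.2% of the probes of each array passed this limit. Glis2, the targeted gene, had 169 ± 7.39 in Glis2KD and 247 ± 26.4 in Control cells on its brighter probe (SD, n = 3 arrays each), a log2 difference of -0.55 ± 0.089 (SE; limma's adjusted p over all probes = 7.16e-05). Its other probe gave -0.36, and on both probes the groups did not overlap. Arrays correlated at r = 0.995 within groups and at 0.980 to 0.982 between groups, across probes, which are not independent replicates. The fit across all probes called 15.6% of them at an adjusted p of 0.05, and 40.0% of the 17092 probes that lay above background on all 3 arrays of at least 1 group.

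Of the 19 probes, 7 lay above background on all 3 arrays of at least 1 group, and they belong to 5 genes. Those of P2rx4 (2 probes) and the brighter P2ry2 probe passed the limit on all 6 arrays. That of P2ry1 passed it only in Glis2KD cells, and those of Entpd2 and Nt5e (2 probes) passed it only in Control cells. Another 9 probes were under the limit on every array, among them all 5 of P2rx7 and both of Entpd1, and the remaining 3, of P2ry6 and P2ry14, passed it on some arrays.

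The starts of the 3 genes whose probes passed the limit in one group and in no array of the other are shown, since these are the genes the description turns on. They are RefSeq windows on GRCm38.p6 from 250 bases before to 50 bases after the annotated start, at chr3:61002535-61002834 for P2ry1, chr9:88327359-88327658 for Nt5e and chr2:25395624-25395923 for Entpd2, all on the plus strand. Capitals mark matches, on either strand, to the motifs searched.
P2ry1: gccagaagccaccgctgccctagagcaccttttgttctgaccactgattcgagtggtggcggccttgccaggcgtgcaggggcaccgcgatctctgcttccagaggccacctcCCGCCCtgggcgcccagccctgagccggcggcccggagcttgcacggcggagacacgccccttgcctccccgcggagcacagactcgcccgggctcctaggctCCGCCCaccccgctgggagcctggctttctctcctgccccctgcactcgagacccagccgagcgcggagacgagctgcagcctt
Nt5e: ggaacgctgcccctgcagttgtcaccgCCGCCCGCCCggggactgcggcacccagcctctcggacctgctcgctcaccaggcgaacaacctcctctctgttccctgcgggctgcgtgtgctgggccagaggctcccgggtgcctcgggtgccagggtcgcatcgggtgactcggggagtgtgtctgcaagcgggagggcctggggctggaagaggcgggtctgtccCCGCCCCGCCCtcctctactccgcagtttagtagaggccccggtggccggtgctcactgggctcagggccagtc
Entpd2: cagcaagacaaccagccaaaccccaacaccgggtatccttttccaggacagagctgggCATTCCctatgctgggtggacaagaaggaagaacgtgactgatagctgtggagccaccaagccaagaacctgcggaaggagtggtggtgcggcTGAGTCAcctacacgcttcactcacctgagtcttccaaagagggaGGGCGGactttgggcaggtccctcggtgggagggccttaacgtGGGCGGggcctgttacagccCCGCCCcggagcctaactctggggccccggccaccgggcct

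The motifs searched were the GLI-type site TGGGTGGTC, the TEAD site GGAATG, the AP-1 site TGANTCA, the GC box GGGCGG and the TATA box TATAAA. The P2ry1 window held 2 GC boxes and the Nt5e window 4, of which neighbouring ones overlap. The Entpd2 window held 3 GC boxes, 1 TEAD site and 1 AP-1 site. The GLI-type site was in 0 of these 3 windows and in 0.253% of all 32851 windows, the GC box in 35.7%, the TEAD site in 14.7%, the AP-1 site in 7.81% and the TATA box in 13.6%. G and C made up 70.7% of the P2ry1 window, 71.0% of that of Nt5e and 62.0% of that of Entpd2, where the median over all windows was 52.7%. A match is a run of letters and does not show that a factor binds there.

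P2ry1 encodes the Gq-coupled receptor for ADP. Its only probe, ILMN_2684316, had intensities of 662, 667 and 569.5 on the Glis2KD arrays, against 132, 125 and 125 on the Control arrays. All 3 Glis2KD arrays were far above the limit, whereas all 3 Control arrays were under it, so the Control level is only bounded. The means were 633 ± 54.9 in Glis2KD and 127 ± 3.89 in Control cells (SD, n = 3 each). The probe was at least 4.58-fold higher in Glis2KD cells, with the limit in place of the Control arrays, and its log2 difference was 2.31 ± 0.086 (SE). Of the 45281 probes on the array, 27 had a higher log2 difference than this one.

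**Figure D1:**
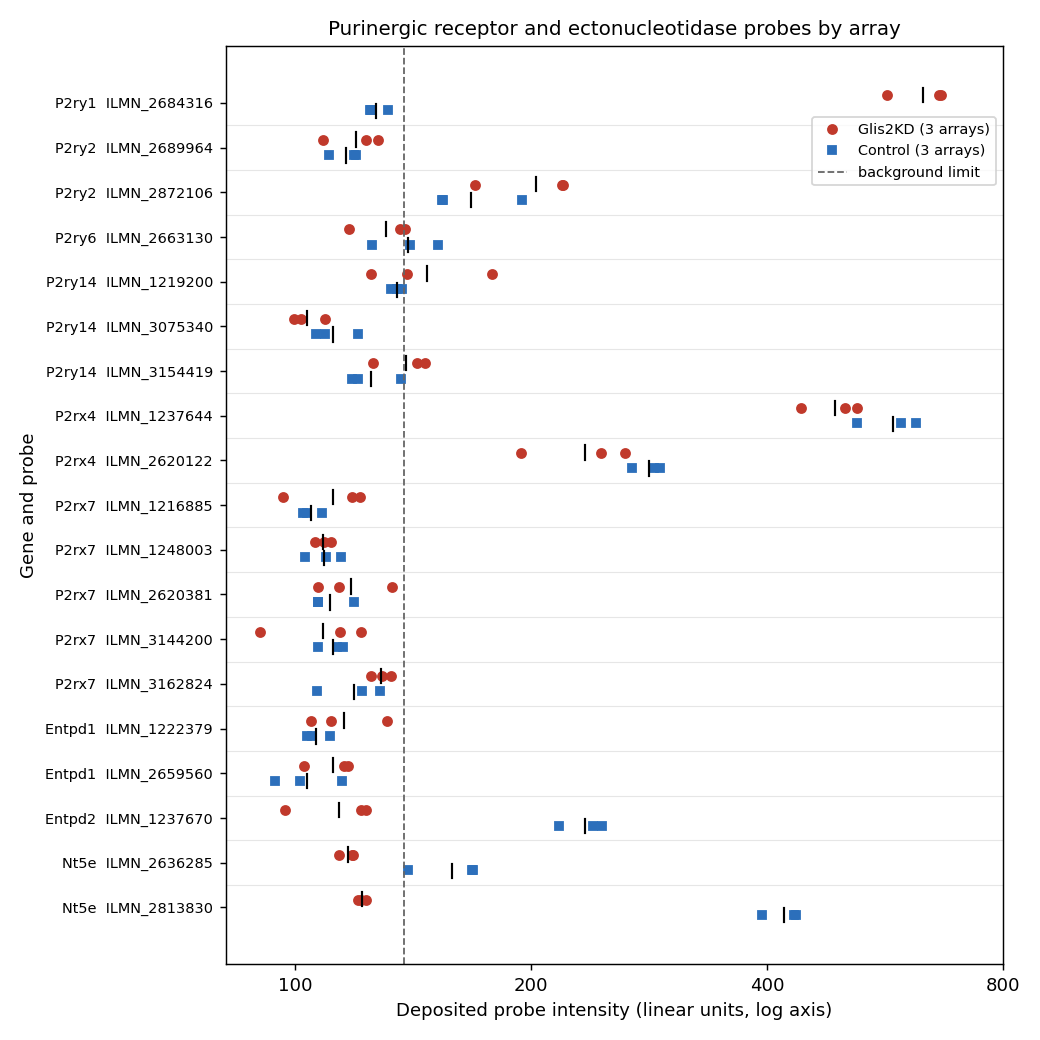
Deposited intensity (linear units on a log axis) of the 19 probes on each array, with 3 Glis2KD arrays as circles above 3 Control arrays as squares, black ticks for group means and a dashed line at the background limit of 138. P2ry1 sits between 569.5 and 667 in Glis2KD cells and under the limit in Control cells, while Entpd2 and both Nt5e probes are under the limit in Glis2KD cells only.

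Among the genes chosen for this description, the other P2Y receptors showed no such separation. P2ry2, the Gq-coupled receptor for ATP and UTP, had 169.9, 219.6 and 219 on Glis2KD arrays and 154, 154 and 195 on Control arrays at probe ILMN_2872106. Both groups were above background and overlapped, with a log2 difference of 0.27 ± 0.11 (SE). Its other probe, ILMN_2689964, ran from 108 to 128 in Glis2KD and from 110.5 to 119.8 in Control cells, under the limit throughout.

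P2ry6, the receptor for UDP, had 117, 138 and 136 on Glis2KD arrays and 140.4, 152 and 125 on Control arrays. These values straddle the background limit, and the log2 difference was -0.09 ± 0.092 (SE). P2ry14, the Gi-coupled receptor for UDP-glucose, has 3 probes. The brightest, ILMN_1219200, had 179, 139 and 125 in Glis2KD cells and 133, 137 and 135 in Control cells. A single Glis2KD array stood apart there, with the other 2 near the limit, and the log2 difference was 0.11 ± 0.10 (SE). Probe ILMN_3154419 had 143, 126 and 147 in Glis2KD and 118, 120.5 and 136 in Control cells, a difference of 0.15 ± 0.089 (SE), and ILMN_3075340 lay under the limit on every array with -0.11. The groups overlapped on all 3 probes.

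Among the P2X channels, P2rx4, a calcium-permeable channel found at the plasma membrane and in lysosomes, lay above background in both groups. Probe ILMN_1237644 had 441, 502 and 521 on Glis2KD arrays and 521, 620.2 and 593 on Control arrays, so that the highest Glis2KD value equalled the lowest Control value. Probe ILMN_2620122 had 246, 194 and 263 in Glis2KD and 269, 287 and 292 in Control cells, and there the groups did not overlap. The log2 differences were -0.24 ± 0.091 and -0.28 ± 0.099 (SE), and neither probe was called by the fit across all probes. P2rx7, the channel that opens a large pore at high ATP and drives the inflammasome in macrophages, was under the limit on all 6 arrays at each of its 5 probes. Those probes are annotated to 4 RefSeq transcripts, ran from 90.2 to 133 in Glis2KD and from 102 to 128 in Control cells, and had log2 differences from -0.05 to 0.12. Intensities at background do not show that a transcript is absent.

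Of the surface enzymes, Nt5e and Entpd2 were lower in Glis2KD cells. Nt5e had 121, 121 and 123 on Glis2KD arrays and 433, 436 and 394 on Control arrays at probe ILMN_2813830. All Glis2KD arrays were under the background limit and all Control arrays well above it, with means of 122 ± 1.36 and 421 ± 23.6 in Glis2KD and Control cells (SD, n = 3 each). The probe was at least 3.05-fold lower in Glis2KD cells, its log2 difference was -1.79 ± 0.082 (SE), and 65 of all probes had a lower one. Its other probe, ILMN_2636285, showed the same separation at a dimmer level, with 118, 114 and 119 in Glis2KD and 169, 168 and 139.5 in Control cells. There the reduction was at least 1.15-fold and the log2 difference -0.44 ± 0.089 (SE). That probe lost its call with the most frequent intensity subtracted.

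Entpd2, an enzyme that prefers ATP over ADP, had 123, 121 and 97.2 on Glis2KD arrays, against 239.8, 246 and 217 on Control arrays. The Glis2KD arrays were under the limit and the Control arrays above it. Means were 114 ± 14.6 in Glis2KD and 234 ± 15.3 in Control cells (SD, n = 3 each). This single probe was at least 1.70-fold lower in Glis2KD cells, with a log2 difference of -1.05 ± 0.095 (SE). Entpd1, known as CD39, which takes ATP and ADP to AMP, was under the limit on all arrays at both probes. They ran from 103 to 131 in Glis2KD and from 94.3 to 115 in Control cells, each with a log2 difference of 0.11.

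**Figure D2:**
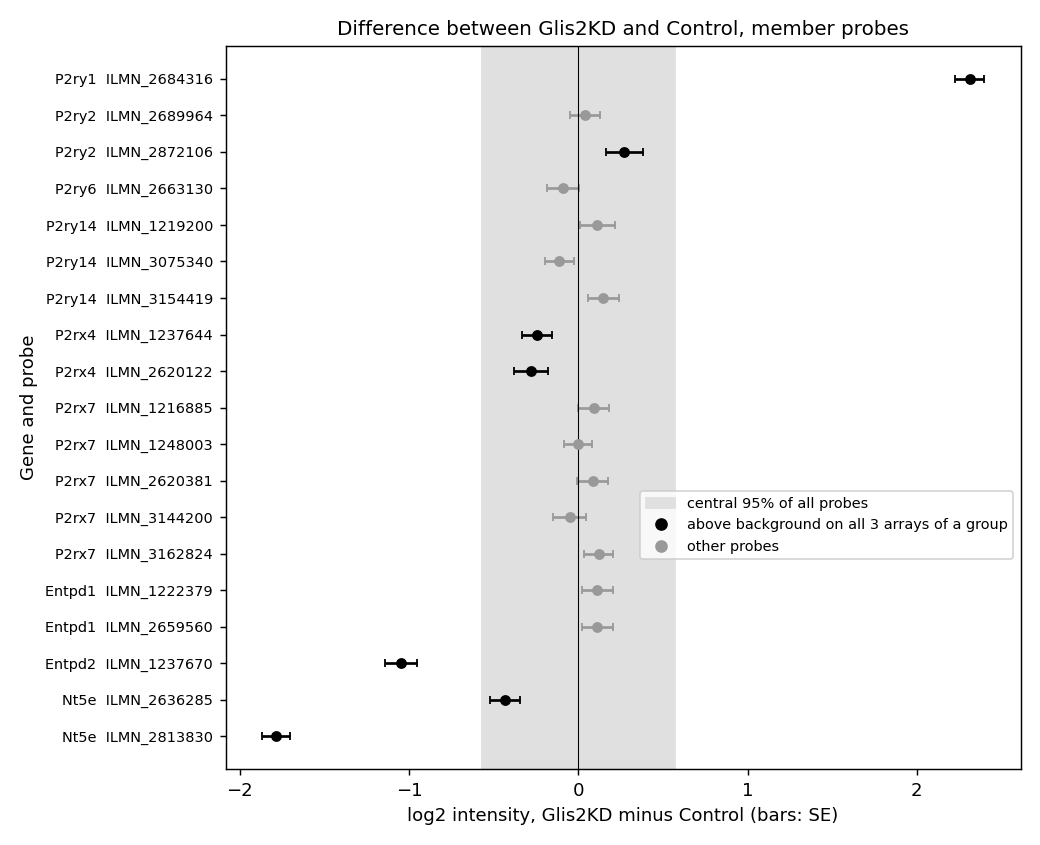
Log2 intensity in Glis2KD minus Control cells for the 19 probes (points, with SE bars), in black where all 3 arrays of a group were above background and in grey otherwise; the band holds the central 95% of all 45281 probes, from -0.57 to 0.57. The probes of P2ry1, Entpd2 and the brighter Nt5e probe lie outside the band.

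Of the 19 probes, the fit across all probes called 1 higher, that of P2ry1, and 3 lower, those of Nt5e and Entpd2, where it called 7.84% of all probes higher and 7.76% lower, and 20.1% and 20.0% of those above background. The groups did not overlap on 1 probe that was higher and 4 that were lower in Glis2KD cells, against 26.3% of all probes and 51.7% of those above background in either direction. The median log2 difference was 0.04 over the 19 probes and 0.00026 over all probes. Since the difference between the groups chose the genes, nothing is read from these counts. The signals of P2ry1, Nt5e and Entpd2 include background, which narrows their differences: with the most frequent intensity subtracted and a floor of 16, the log2 differences were 4.96, -4.26 and -2.91, values set in part by the floor.

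The 3 genes lie on different chromosomes, and their differences were set beside those of the 25 nearest genes above background on each side. The 50 genes around P2ry1 on chromosome 3 had a median log2 difference of 0.14, with 14 higher and 8 lower by limma's gene-level call. The genes next to it, Mbnl1 and Rap2b, had 0.22 and 0.01, and the lowest of the 50, at -2.85, was Mme, a brush-border peptidase. For the neighbours of Nt5e on chromosome 9 the median was -0.14 (10 higher, 17 lower), and those of Entpd2 on chromosome 2 one of -0.12 (7 higher, 19 lower). The 50 genes around P2ry2 on chromosome 7 had a median difference of 0.26, with 26 called higher and 0 lower, beside its own 0.27. P2ry6, which lies next to P2ry2 and has the same neighbour median, had -0.09. P2rx4 had -0.24 beside a neighbour median of 0.10. P2ry14, P2rx7 and Entpd1, at or near background, had 0.11, 0.12 and 0.11 beside medians of 0.12, 0.10 and 0.12. A part of the region in these values was not tested. Among all 9251 genes above background, 22.4% were called higher and 23.0% lower.

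**Figure D3:**
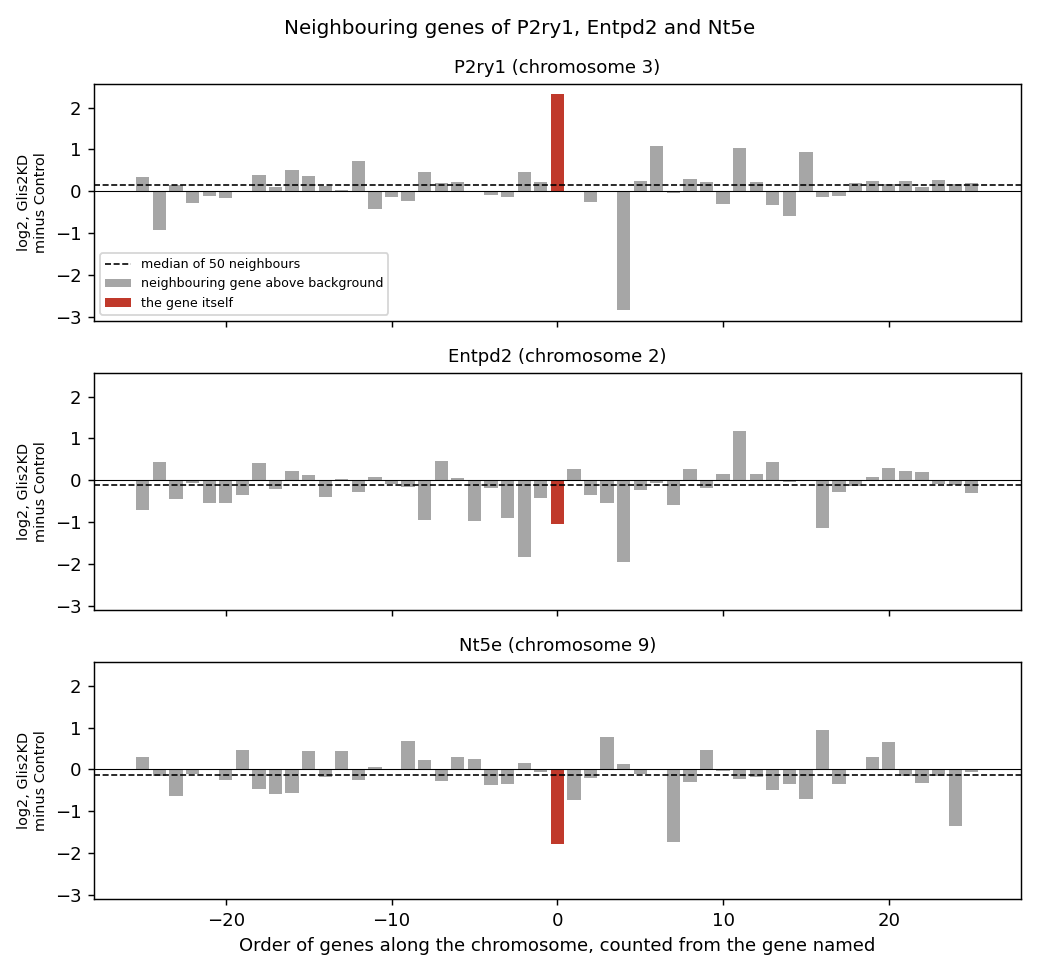
Log2 intensity in Glis2KD minus Control cells for P2ry1, Entpd2 and Nt5e (red, position 0) and for the 25 nearest genes above background on each side (grey), in chromosome order; dashed lines mark the neighbours' medians of 0.14, -0.12 and -0.14. The P2ry1 bar is the highest and the Nt5e bar the lowest of its panel, whereas 3 neighbours of Entpd2 lie below it.

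The genes whose profile over the 6 arrays was most like that of P2ry1 were sought among 9250 others above background, by the smallest root mean square difference of mean-centred log2 values. The nearest was Sema4f, a semaphorin, at 0.059, followed by the immunoglobulin superfamily adhesion protein Igsf11 at 0.084 and the collagen chain Col5a1 at 0.091. Tlcd4 and Popdc3 came next, both at 0.107. The measure was dominated by the step between the groups, since their log2 differences ran from 2.11 for Tlcd4 to 2.37 for Popdc3, beside 2.31 for P2ry1. It says nothing of shared function.

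Other genes of the pathway were taken from 7 lists, of which 106 of 114 entries had a probe, each gene being represented by its brightest probe. The gene-level limma fit called 14 of the 106 higher and 19 lower in Glis2KD cells, 31.1% in all, where it called 22.5% of all 19057 genes and 45.4% of those above background. By direction, it called 11.1% of all genes higher and 11.4% lower, and 22.4% and 23.0% of those above background. The counts of each list below stand beside these shares. Of the 106 genes, 59 lay above background on all arrays of a group. Their median log2 difference was 0.05, and that of the 106 was 0.03, beside 0.0039 over all genes. With the most frequent intensity subtracted, 12 were higher and 11 lower. The values below are those of the brightest probe. The dimmer probes of P2ry12, Acpp, Slc29a2, Slc29a4, Ampd3, Cftr, Itpr2, Rgs3, Gnai1, Pde4b, Prkar1a and Grk5 were not called by the all-probe fit. None of these passed the limit on all arrays of a group, so the missing calls say little. Those of Grk6 (0.56), Gnai2 (0.53), Nt5c2 (0.45 and 0.46) and Txnip (-0.34) were called, in the direction of the brightest probe. Dimmer probes of Gnaq and Entpd5 were in part called. For Gnaq, ILMN_2658443 was called at 0.27, while ILMN_2686883, above background on every array, gave -0.02 and was not called. Its remaining dimmer probes were under the limit on every array and not called. For Entpd5, ILMN_3070469 was under the limit on every array, gave -0.01 and was not called.

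**Figure D4:**
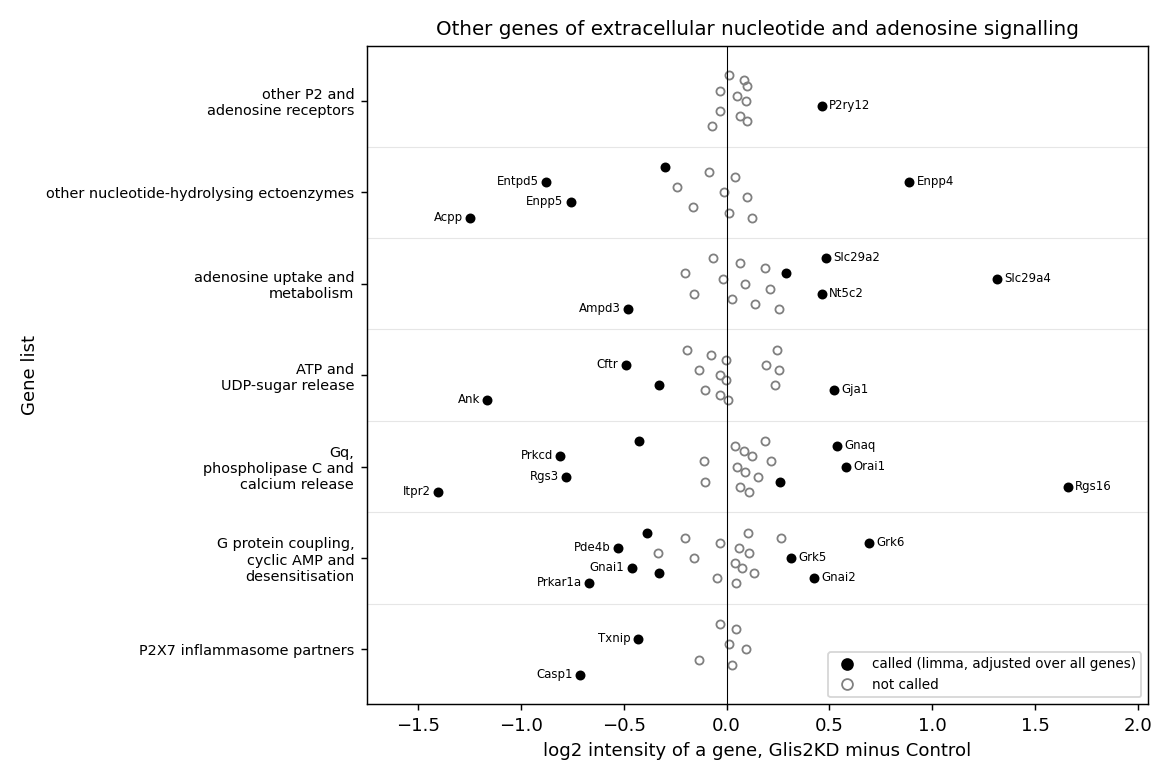
Log2 intensity in Glis2KD minus Control cells for the 106 other pathway genes in 7 lists, 1 point per gene; filled points were called by limma after adjustment over all genes and open points were not. Rgs16 and Slc29a4 lie farthest to the right, and Itpr2, Acpp and Ank farthest to the left.

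The other nucleotide and adenosine receptors were near background. Of 11 measured, 1 was called, and it was the only one above background on all arrays of a group. This was P2ry12, the Gi-coupled ADP receptor known from platelets and microglia, with 155, 171 and 172 in Glis2KD and 132, 116 and 114 in Control cells. It was at least 1.2-fold higher in Glis2KD cells, with limma's adjusted p = 0.000343, while its other probe was under the limit on every array with a log2 difference of 0.03. P2ry4, P2ry10, P2ry10b, P2ry13, P2rx2, P2rx3 and P2rx5 were under the limit on all 6 arrays, and P2rx1, P2rx6 and Adora3 passed it on 1 to 3 arrays.

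Other enzymes that act on nucleotides or related phosphates, not all of them at the cell surface, were called lower in 4 of 13 measured cases and higher in 1. The 4 were Acpp, Entpd5, Enpp5 and Cant1. Acpp, prostatic acid phosphatase, whose transmembrane form makes adenosine from AMP, had 165, 174 and 165 in Glis2KD and 421, 355 and 423 in Control cells. Its log2 difference was -1.25 ± 0.091 (SE; limma's adjusted p = 1.94e-10), though its 2 other, dimmer probes were not called. Entpd5, a diphosphatase of the endoplasmic reticulum, fell by 0.88 on the log2 scale and Enpp5, of the pyrophosphatase and phosphodiesterase family, by 0.76 (limma's adjusted p = 1.67e-07 and 2.25e-07). Enpp4 of the same family was higher, with 296, 222 and 189.6 in Glis2KD and 117, 139 and 121 in Control cells, where 1 of 3 arrays was above the limit (limma's adjusted p = 3.37e-06). Entpd4, Entpd6 and Entpd7, members known mainly from intracellular membranes, were above background in both groups with log2 differences of -0.17, -0.01 and 0.10, and were not called.

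Adenosine uptake and metabolism genes were higher in 4 of 16 cases and lower in 1. Slc29a4, a membrane monoamine transporter of the equilibrative nucleoside transporter family, had 262, 309 and 304 in Glis2KD and 120.3, 109 and 123 in Control cells. All Control arrays were under the limit, and this probe was at least 2.11-fold higher in Glis2KD cells (limma's adjusted p = 9.49e-11). The other probes of Slc29a4 were dimmer, with overlapping groups and log2 differences of 0.19 and 0.11, and were not called. The equilibrative transporter Slc29a2 rose by 0.48 and the cytosolic nucleotidase Nt5c2 by 0.46, whereas the AMP deaminase Ampd3 fell by 0.48 on the log2 scale. Adenosine kinase, Adk, had 3630 ± 110.1 in Glis2KD and 3814 ± 421 in Control cells (SD, n = 3) and was not called. Nt5c2 and Ampd3 lost their calls with the most frequent intensity subtracted (limma's adjusted p = 0.0737 and 0.0541), which left 2 higher and 0 lower.

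In the list of ATP and UDP-sugar release, 1 of 17 genes was called higher and 3 lower, and 7 were under the limit on every array. Gjb6, 1 of the 3 called lower, was also among those 7, so its log2 difference of -0.33 lies at background. Gja1, the gap junction connexin, had 17465, 17897 and 20125 in Glis2KD and 12518, 13578 and 12454 in Control cells, a log2 difference of 0.52 ± 0.089 (SE; limma's adjusted p = 7.08e-05). Ank, a membrane protein needed for release of ATP and pyrophosphate, had 237, 265 and 247 in Glis2KD and 581, 568 and 528 in Control cells. Its log2 difference was -1.16 ± 0.087 (SE; limma's adjusted p = 3.10e-10). The chloride channel Cftr had 142 ± 9.76 in Glis2KD and 201 ± 31.9 in Control cells, and its call was lost with the most frequent intensity subtracted and with the mean of its probes (limma's adjusted p = 0.0876 and 0.165). The pannexin channel Panx1 passed the limit on 2 Glis2KD arrays and 0 Control arrays and was not called. Without Control replicate 1 or without Glis2KD replicate 1, 2 genes were higher, and with the most frequent intensity subtracted 1 was lower.

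Downstream of Gq-coupled receptors such as P2ry1, 4 of 20 genes were higher and 4 lower in Glis2KD cells. Rgs16, which shortens the active state of Gq and Gi, had 617, 630.1 and 483 in Glis2KD and 172, 188 and 184 in Control cells, a log2 difference of 1.66 ± 0.099 (SE; limma's adjusted p = 5.61e-12). Gnaq, the Gq alpha subunit, had 3255, 3208 and 3296 in Glis2KD and 2136, 2102 and 2509.5 in Control cells (limma's adjusted p = 6.15e-05), and the store-operated channel subunit Orai1 rose by 0.58. Itpr2, a calcium release channel of the endoplasmic reticulum, had 858, 829 and 849.6 in Glis2KD and 2479.6, 2030.3 and 2215 in Control cells. Its log2 difference was -1.40 ± 0.091 (SE; limma's adjusted p = 2.24e-11). Protein kinase C delta, Prkcd, fell by 0.81 and the regulator Rgs3 by 0.78 on the log2 scale. Phospholipase C beta 3, Plcb3, had a difference of 0.15 and was not called. When the probes of a gene were averaged, Gnaq and Rgs3 lost their calls (limma's adjusted p = 0.199 and 0.371).

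Of 21 genes of other G protein coupling, cyclic AMP and desensitisation, 3 were higher and 5 lower. The receptor kinases Grk6 and Grk5 rose by 0.69 and 0.32 and the Gi alpha subunit Gnai2 by 0.43, while Gnai1 fell by 0.46. Prkar1a, a regulatory subunit of protein kinase A, had 5447 ± 123 in Glis2KD and 8669 ± 469 in Control cells (SD, n = 3; limma's adjusted p = 1.63e-06), and the phosphodiesterase Pde4b fell by 0.53 on the log2 scale. Grk5 and Pde4b lost their calls with the mean of their probes (limma's adjusted p = 0.358 and 0.133), Grk5 also without Glis2KD replicate 3 (0.0628). Gnai1 lost it with the most frequent intensity subtracted (0.0733), where 3 genes of the list were lower.

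Partners of P2rx7 in the inflammasome were lower in 2 of 8 cases and higher in 0. The protease Casp1 was at least 1.38-fold lower in Glis2KD cells, where all arrays were under the limit (limma's adjusted p = 1.94e-06). Txnip, a thioredoxin-binding protein, had 2926, 3058 and 2941 in Glis2KD and 5048, 3371 and 3793 in Control cells. Its call was lost without Control replicate 1, the highest array, and with the most frequent intensity subtracted (limma's adjusted p = 0.0661 and 0.218), and 1 gene was then lower. Nlrp3, Pycard, Il1b and Nek7 were under the limit on all 6 arrays.

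Markers of the labelled cell type and of other cells were measured beside these genes. Of 15 proximal tubule markers with a probe, 4 were called lower in Glis2KD cells (Aqp1, Mme, Cdh16 and Dab2) and 0 higher. The same fit called 11.4% of all genes lower and 11.1% higher, and 23.0% and 22.4% of those above background. Among the 15, 7 were under the limit on every array, including Lrp2, Slc34a1, Slc5a2 and Anpep. The summed intensity of the 15 ran from 4829 to 5202 on Glis2KD arrays and from 15555 to 17489 on Control arrays. This came chiefly through the water channel Aqp1 (365 ± 101 in Glis2KD, 9760.0 ± 706 in Control cells). Fibroblast and pericyte markers, cells known to carry Nt5e in kidney, summed to 956 to 1023 on Glis2KD and 1111 to 1122 on Control arrays. Of these 8, Col1a2 was called higher and Dcn lower. Col1a2 passed the limit on only 1 Glis2KD array and 0 Control arrays, so its difference lies near background. Pdgfra, Pdgfrb, Col3a1 and Lum were under the limit throughout.

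Endothelial markers were called in 0 of 7 cases and summed to 852 to 887 on Glis2KD and 811 to 872 on Control arrays. Leukocyte markers were higher in 1 of 7 cases, Csf1r, and 0 were lower. Their sums were 887 to 986 on Glis2KD and 860 to 913 on Control arrays, and Ptprc was under the limit throughout. Each probe in these sums still contains background, whose most frequent intensity was 113.5. The sums of fibroblast, endothelial and leukocyte markers are therefore largely background. Above background on all arrays of a group were 1 of 8, 0 of 7 and 1 of 7 of them. Markers of the loop of Henle, distal tubule and collecting duct were called in 0 of 8 cases. They summed to 1975 to 2146 on Glis2KD and 2093 to 2226 on Control arrays, chiefly through the distal tubule marker Slc12a3. It was above background on every array, with 1148 ± 96.4 in Glis2KD and 1244 ± 73.4 in Control cells (SD, n = 3 each). Several proximal tubule markers named above were at background in both groups. The part of these differences in the values of P2ry1, Nt5e and Entpd2 was not tested, and fewer cells that express a gene and less RNA per cell cannot be told apart in such bulk samples. Effects of lowering Glis2 and other effects of the hairpin cannot be told apart here either.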

How the data were processed

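RNA from 6 samples of tubular cells was hybridised, with Cy3 label, to an Illumina mouse bead array, per the labels. The deposited values are linear intensities, 1 for each probe on each array. The authors had brought the 6 arrays to the same distribution (log2 medians within 0.00029), without subtracting background; no source used here names the software or method. The intensities, floored at 16 (0 values changed), were taken to log2. Probes were named by the platform annotation, in which 34885 had 1 symbol, 18 several and 10378 none; 34807 matched a RefSeq table of GRCm38.p6 by Entrez identifier, used for symbols, chromosomes and gene order.

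The groups were compared with lmFit and eBayes of limma 3.58.1 under R 4.3.3, Glis2KD minus Control, over all 45281 probes for the 10 genes and over 19057 genes, 1 brightest probe each, for pathway lists, with Benjamini-Hochberg adjustment at 0.05. The fit was also run on simulated data with the same SD for all genes. The SD of real probes varies, so nothing about these data is concluded from that run. The genes and lists were chosen with earlier results of these data known. Pathway genes named were, per list, up to 3 called genes above background with the largest rise and 3 with the largest fall; other list genes named were chosen after their values were seen. The background limit was also set after the data had been seen. Acp3 and Ankh are listed as Acpp and Ank. With 3 arrays a group, their number limits the precision. Same-numbered arrays of the groups did not deviate together.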

Additional observations from a re-analysis of the deposited data

How the results depend on the processing

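Offset of 50, subtraction of the most frequent intensity, quantile normalization, probes above the median intensity, eBayes with trend and robust, a replicate block, the mean of a gene's probes and the removal of each array in turn were tried. P2ry1, Entpd2 and the brighter Nt5e probe kept direction and call in all 12 alternatives run for a probe. Of 26 named pathway genes, 9 lost their call in at least 1 of 13 alternatives and 0 changed sign. All these genes were chosen or named with the difference between the groups in view, so a kept call is no support for that difference. The offset gave log2 differences of 1.94, -0.80 and -1.45 for P2ry1, Entpd2 and Nt5e, and subtraction 4.96, -2.91 and -4.26; an offset compresses low intensities and subtraction widens them. Subtraction also left 2632 genes called in place of 4290, and 11 pathway genes lower in place of 19. Quantile normalization left 4289 called, but it could change little, since the arrays already shared a common distribution. Leaving out 1 array gave 2.27 to 2.39 for P2ry1, -1.11 to -0.94 for Entpd2 and -1.84 to -1.76 for Nt5e. Of the 19 probes, 4 to 5 were then called, 1 to 2 higher and 3 to 4 lower. The brighter P2ry2 probe was called without Control replicate 3 or Glis2KD replicate 1. For P2rx4, probe ILMN_1237644 was called only without Control replicate 1. Its probe ILMN_2620122 was called only without Glis2KD replicate 3 and among probes above the median intensity. Pathway calls ran from 31 to 34 (12 to 15 higher, 16 to 20 lower) and calls over all genes from 3751 to 3994. Deviations of same-numbered arrays correlated at -0.10, -0.04 and -0.06, and 0 of 3 Glis2KD arrays correlated best with its own number. Those of differently numbered arrays ran from -0.0032 to 0.073, so the same-numbered values were the lowest. These correlations cannot show whether arrays of the same number share a culture or infection. With the replicate block 4 of the 19 probes, 32 pathway genes and 4119 genes in all were called. A limit of 2 SD or 5 SD, chosen after seeing the data, put 8 or 6 of the 19 probes above background in place of 7.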
